A study of Mus musculus with 25 samples.

Results

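The genes described here are 10 parts of the signalling route shared by leptin, prolactin, growth hormone and the interleukin-6 family of cytokines: the receptors Lepr, Prlr, Ghr, Cntfr, Il6ra, Il6st and Lifr, the Janus kinases Jak1 and Jak2, and the transcription factor Stat3. They were taken by symbol, 10 of 30903 gene symbols, and each had 1 row with values in all 25 cells. The cells were single GFP-positive cells picked by hand from the arcuate nucleus and the adjoining median eminence, the part of the hypothalamus open to blood-borne hormones. They came from 2 pooled adult male mice of the strain (C57BL/6 x DBA)F2, with an average age of 63 days. The mice carried RIP-Cre, in which a rat insulin promoter drives Cre recombinase, and the virus AAV-loxSTOPlox-GFP, which expresses green fluorescent protein after Cre has removed a stop cassette. All cells share this genotype and virus, there was no untreated or Cre-negative group, and the labels name no hormone treatment. The 25 cells are therefore 1 group from 1 pool: no cell counts as a replicate, and neither a test nor a p-value is given.

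Class I cytokine receptors have no kinase of their own. Ligand binding brings receptor chains together, the Janus kinases bound to their tails phosphorylate one another and the receptor, and STAT proteins docked there are phosphorylated and move to the nucleus. Leptin, prolactin and growth hormone receptors act as pairs of a single chain and mainly use Jak2, whereas CNTF, LIF and interleukin-6 receptors share the chain gp130, encoded by Il6st, and also use Jak1. In the arcuate nucleus leptin acts through Stat3 on feeding neurons, and prolactin acts on dopamine neurons that in turn restrain prolactin release.

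Libraries were made with Smart-Seq2, which copies transcripts over their length from single cells. Values are RPKM, in which the reads of a gene are divided by its length in kilobases and by the read total of the cell. The depth, which was inferred from low values, was 891000 to 3012000 reads per cell with a median of 1816000, and 3843 to 6183 genes per cell reached 10 RPKM, the level at which a gene was counted in a cell. Because RPKM divides by length, this level asks for many reads of a long gene: in the cell of median depth it is about 40.7 reads for Cntfr, 131 for Jak1, 140 for Lepr, 141 for Il6st, 156 for Jak2, 157 for Il6ra, 164 for Ghr, 173 for Stat3, 198 for Lifr and 279 for Prlr. Values below 10 RPKM are therefore given as well. The cells carried 7 to 10 of 10 neuron markers at the level, with summed neuron marker levels of 983.36 to 1784.92 RPKM. Of the 7 astrocyte markers at most 1 reached the level in any cell, with a summed level of 0 to 42.4 RPKM, and Gfap and Agt were listed at 0 in every cell. Of the 8 tanycyte and ependymal markers at most 2 did so in any cell, with a summed level of 0 to 106.82 RPKM, and Rax and Nes were at 0 in every cell.

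Promoter sequence is shown first for the 3 genes that recur below and carry the palindrome bound by STAT proteins, TTCNNNGAA, in the RefSeq promoter windows (250 bases before to 50 bases after a start, GRCm38.p6). The pattern, though not each matched stretch, reads the same on both strands, and matches are in capitals. All 10 receptor, kinase and factor genes were matched, with 20 promoters, of which 1 (5.0%) held the palindrome, beside 2726 of 32851 promoters of all genes (8.3%). That promoter belongs to 1 of the 3 Prlr starts and lies inside the gene. Among the inhibitors of the route, 10 genes were matched, and 2 of their 12 promoters (16.7%) held it: those of Socs3 and Cish, feedback inhibitors of cytokine receptors. A match describes letters only and is not a measured site.
Prlr, chr15:10223736-10223855, + strand, the palindrome starting 110 bases before the start: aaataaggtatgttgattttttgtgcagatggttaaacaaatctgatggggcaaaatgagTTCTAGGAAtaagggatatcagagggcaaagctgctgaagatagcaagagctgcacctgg
Socs3, chr11:117969461-117969580, - strand, the palindrome starting 154 bases before the start: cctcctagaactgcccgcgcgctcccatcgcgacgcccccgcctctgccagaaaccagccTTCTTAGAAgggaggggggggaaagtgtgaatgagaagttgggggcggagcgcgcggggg
Cish, chr9:107296654-107296682, + strand, 2 palindromes, the first at the start and the second 11 bases after it: cagttTTCCTGGAAagTTCTTGGAAatct

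Across the 10 genes and 25 cells, 69 of 250 values (27.6%) were at 10 RPKM or more, beside 30.5% of all values of the 16341 genes with any value. Above 0 were 136 of the 250 (54.4%), beside 45.2% of the values of all these genes. Il6ra had no value above 0, and without it the shares for the other 9 genes were 30.7% and 60.4%. The share at the level was thus near that of all genes. By mean over the cells the order was Jak1 (41.3 RPKM), Stat3 (22.1), Prlr (14.1), Cntfr (11.9), Il6st (8.95), Ghr (3.03), Jak2 (2.80), Lifr (0.678), Lepr (0.224) and Il6ra (0). Every gene had cells at 0, so the ranges of all neighbours in this order overlap. Among the 16341 genes, 85.1% had a lower mean than Jak1 and 11.9% a lower mean than Lepr. Of the 136 values, 67 lay between 0 and 10 RPKM and 36 of those below 1 RPKM. A cell had a median of 2 of the 10 genes at the level, from 1 in 3 cells to 6 in cell 11, the deepest cell. The number per cell had a Pearson r of 0.442 and a Spearman rho of 0.239 with estimated depth over the 25 cells, and of 0.559 and 0.45 with the number of genes at the level. These are descriptions of cells from 1 pool. Fewer molecules per cell and losses in library preparation cannot be told apart in single cells, so a value of 0 says only that the gene is listed at 0.

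**Figure D1:**
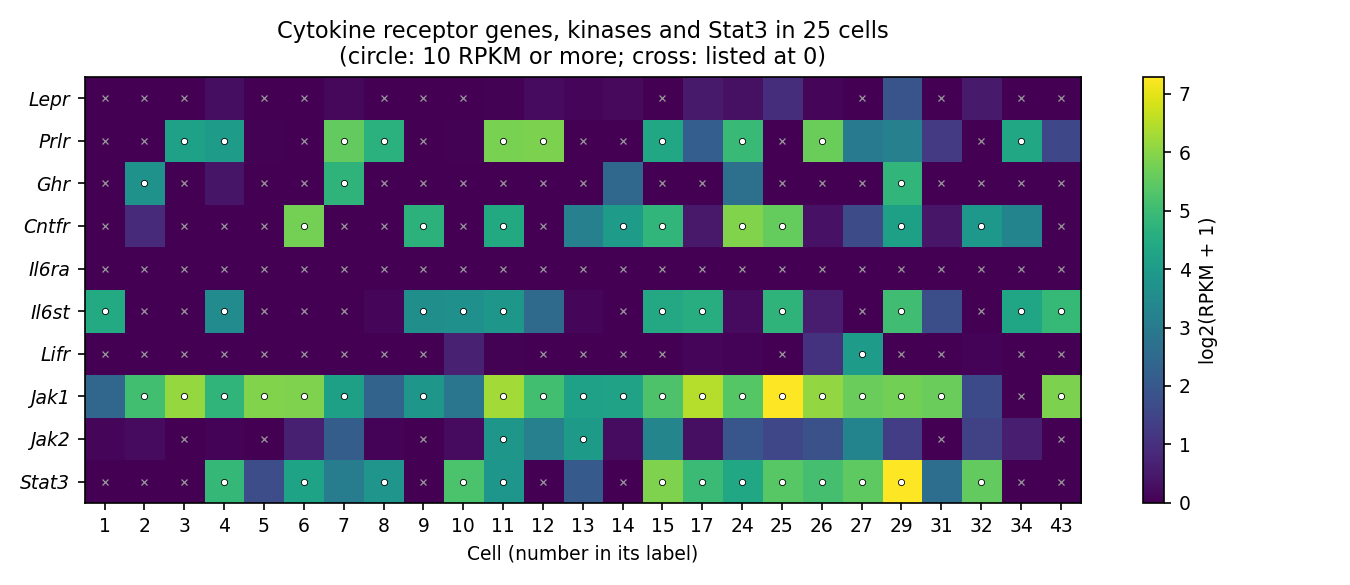
Levels of the 10 genes (rows) in each of the 25 cells (columns, by the number in the label), as log2(RPKM + 1), with circles at 10 RPKM or more and crosses at 0. Jak1 fills 20 of 25 cells, Lepr has no circle, and Il6ra is at 0 throughout.

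Lepr encodes the leptin receptor (chr4:101717404-101815352, + strand, GRCm38). It reached 10 RPKM in 0 of 25 cells, which allows a share of up to 12% by the limit of 3 cells for a count of 0, and 13.7% by the exact 95% interval. Lepr was above 0 in 12 cells. The highest value was 2.73 RPKM in cell 29, followed by 0.92 RPKM in cell 25, and the median over all cells was 0. In estimated reads, cell 29 had 58, cell 25 had 9, cell 17 had 7, cell 32 had 5, and cells 4 and 24 had 3 each. Cells 7, 12 and 14 had 2 reads each, cells 11, 13 and 26 had 1 each, and the other 13 cells were at 0. Cell 29 therefore held 61.7% of the 94 estimated Lepr reads, 2.97-fold the RPKM of the next cell. Libraries made without molecular identifiers can read 1 molecule several times, and 8 of the 12 cells had 1 to 3 reads.

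**Figure D2:**
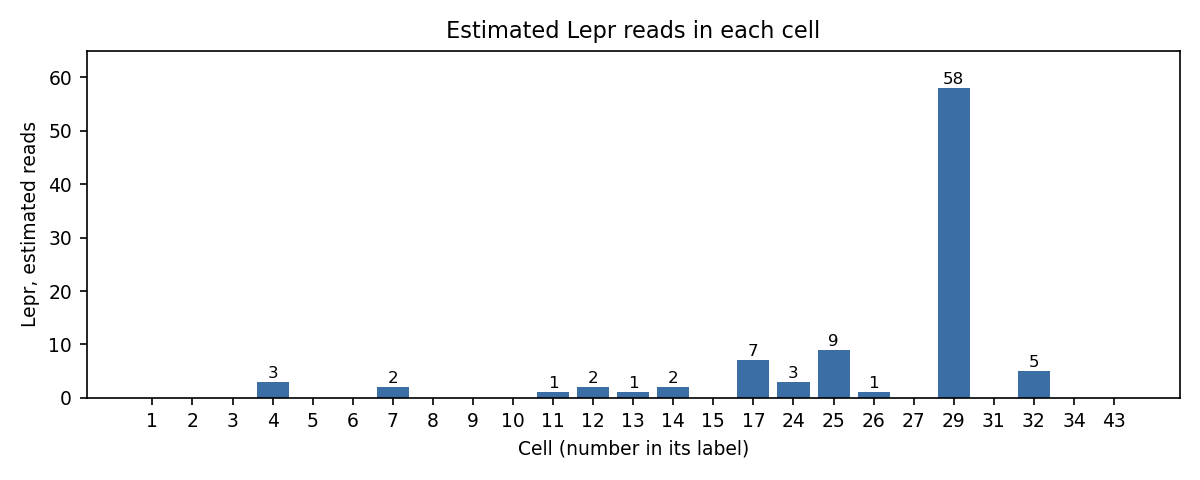
Estimated number of Lepr reads (vertical axis) in each cell (horizontal axis). Cell 29 stands at 58 reads, the next at 9, and 13 cells have no bar.

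Among cells with Lepr above 0, Stat3 was at the level in 8 of 12, and among cells with Lepr at 0 in 5 of 13. Jak2, the kinase bound by the leptin receptor, was above 0 in all 12 cells with Lepr and in 8 of the 13 without, although at the level in 2 cells in all. Lepr (log2 scale) had a Pearson r of 0.514 and a Spearman rho of 0.51 with the number of genes at the level per cell, and of 0.234 and 0.01 with estimated depth. The part of the number of genes in the joint presence was not tested. Leprot, a gene that encodes a protein limiting leptin receptor at the cell surface, was at the level in 14 cells, with a median of 20.13 RPKM, and cell 17 held the most at 185.1 RPKM. Its relative Leprotl1 was at the level in 23 cells. Lepr itself stayed below the level in every cell, so these counts cannot set cells with Lepr at the level against the rest.

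Prlr, the prolactin receptor gene (chr15:10177238-10349180, + strand), was at the level in 10 of 25 cells (40%, exact 95% interval 21.1 to 61.3%). The median over all cells was 3.49 RPKM, with a range of 0 to 56.29. The 10 cells were cell 12 at 56.29 RPKM, cell 11 at 55.75, cell 26 at 49.82, cell 7 at 45.38, cell 24 at 28.88, cell 8 at 24.44, cell 15 at 19.86, cell 34 at 19.24, cell 3 at 16.86 and cell 4 at 15.2. Below the level lay cell 29 at 7.99 RPKM, cell 27 at 6.83, cell 17 at 3.49, cell 43 at 2.02, cell 31 at 1.34, and cells 5 and 10 at 0.03 each. The other 8 cells were at 0. Prlr was the receptor with the longest exons here, so that even 7.99 RPKM stands for many reads. In the annotation it shares 203 exon bases on the same strand with Gm21973, and how the counting treated them is not given in the sources used here.

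Prlr was common among cells with Th, which encodes tyrosine hydroxylase, the enzyme that makes the dopamine precursor. Th was at the level in 8 cells, and 6 of these (3, 8, 11, 12, 15 and 26) had Prlr at the level, where the product of the shares gives 3.2. Of the 17 cells without Th, 4 had Prlr at the level. The Prlr median was 22.15 RPKM (range 0 to 56.29) in the 8 cells with Th and 0.03 RPKM (0 to 45.38) in the 17 without, so the ranges overlap. The other two Th cells were cell 43, with 2.02 RPKM of Prlr, and cell 1, with 0. Cell 1 also had somatostatin, Sst. None of the 5 Sst cells (1, 6, 9, 25 and 31) had Prlr at the level, with a highest value of 1.34 RPKM, where the product of shares gives 2. The 5 cells with galanin, Gal, had Prlr at the level in 0, where the product of shares also gives 2. Gal and Sst share cells 6 and 9, and Gal cell 29 had 7.99 RPKM of Prlr. Of the Sst cells, 1, 6 and 31 were low in the nuclear RNA Malat1, and 9 and 31 were among the 3 shallowest. The part of Malat1 level and depth was not tested, and these cells are too few to read. Pomc cells had it in 3 of 10, Agrp cells in 4 of 9 and Glp1r cells in 3 of 10. The pairs of Prlr with Th, Sst and Gal were picked with these values in view.

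**Figure D3:**
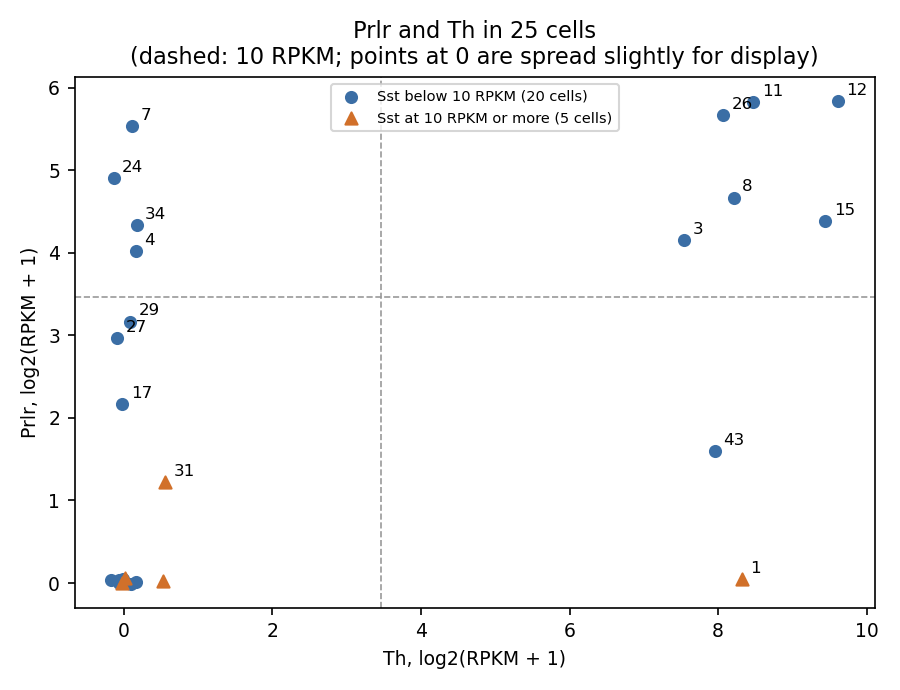
Prlr (vertical) against Th (horizontal) in the 25 cells, both as log2(RPKM + 1), with dashed lines at 10 RPKM and triangles for the 5 cells with Sst. Of the 8 cells right of the dashed line, 6 lie above the horizontal one, and no triangle does.

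Ghr, the growth hormone receptor gene (chr15:3317760-3583492, - strand), was at the level in 3 cells (12%, 2.55 to 31.2%): cell 29 at 26.97 RPKM, cell 7 at 26.02 and cell 2 at 12.45. Cell 24 had 5.43 RPKM, cell 14 had 4.49, cell 4 had 0.34, and the other 19 cells were at 0. Cell 7 was the single cell with both Ghr and Prlr at the level. Ghr was at the level in 0 Th cells and 0 Sst cells, where the products of shares give 0.96 and 0.6, too few cells to read. All 3 Ghr cells had Socs2, an inhibitor of growth hormone signalling, at the level, where the product of shares gives 1.68. Here too the cells are too few to read. Ghrh, the hormone that drives growth hormone release, was at the level in cell 11, at 60.5 RPKM, and just below it in cell 12, at 8.97, and Ghr was listed at 0 in both.

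The CNTF receptor is a complex of 3 chains: Cntfr, which binds the ligand and has no intracellular part, with Il6st and Lifr. Cntfr (chr4:41657498-41697089, - strand) was at the level in 9 cells (36%, 18 to 57.5%) with a median of 0.81 RPKM over all cells. The values were 58.95 RPKM in cell 24, 53.06 in cell 6, 46.74 in cell 25, 26.73 in cell 15, 24.92 in cell 9, 20.47 in cell 11, 16.55 in cell 29, 15.04 in cell 14 and 13.71 in cell 32. Next were cell 34 at 8.79 and cell 13 at 8.02 RPKM, just under the level, and 9 cells were at 0. Cntfr is the shortest of these genes, so the level asks for the fewest reads of it. It was at the level in 6 of 10 Glp1r cells (product of shares 3.6), 3 of 5 Sst cells and 2 of 8 Th cells.

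Il6st (chr13:112464070-112510086, + strand) was at the level in 11 cells (44%, 24.4 to 65.1%), the most of any receptor here, and above 0 in 17. Its median over all cells was 2.39 RPKM. The highest values were 32.42 RPKM in cell 29, 28.6 in cell 43, 25.6 in cell 25, 22.24 in cell 17, 21.02 in cell 1, 19.97 in cell 15 and 18.77 in cell 34. Cells 11, 10, 9 and 4 lay closer to the level, at 13.64, 11.61, 11.41 and 10.56 RPKM. The highest value below it was 4.78 RPKM in cell 12, so cells fell into those above 10 and those below 5 RPKM.

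Lifr (chr15:7090614-7197489, + strand), the LIF receptor, was at the level in 1 cell (4%, 0.101 to 20.4%), cell 27, at 15.03 RPKM or 302 estimated reads. This was 13.79-fold the next value, 1.09 RPKM (19 reads) in cell 26. Cell 10 had 0.6 RPKM, and cells 17, 24, 32 and 11 had 0.09, 0.06, 0.06 and 0.03. The other 18 cells were at 0. In cell 27, Il6st was at 0 and Cntfr at 2.18 RPKM, while Osmr, the oncostatin M receptor chain that also pairs with gp130, had its highest value, 3.0 RPKM, in the same cell. As a result 0 of 25 cells had Cntfr, Lifr and Il6st at the level together. With Lifr in 1 cell, the product of shares gives 0.36 for Lifr with Cntfr and 0.44 for Lifr with Il6st. The count of 0 therefore cannot be read as an absence of the whole receptor. In 4 cells all 3 genes were above 0. Those were cell 11 (20.47, 0.03 and 13.64 RPKM of Cntfr, Lifr and Il6st), cell 17 (0.42, 0.09 and 22.24), cell 24 (58.95, 0.06 and 0.17) and cell 26 (0.28, 1.09 and 0.49). Cntfr and Il6st were together at the level in 5 cells (9, 11, 15, 25 and 29), where the product of shares gives 3.96.

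Il6ra (chr3:89864059-89913196, - strand), the ligand-binding chain for interleukin-6, was listed at 0 in all 25 cells, which allows a share of cells above 0 of up to 12% by the limit for a count of 0. Its relative Il11ra1, the receptor chain for interleukin-11, was at the level in 9 cells.

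Jak1 (chr4:101152367-101265282, - strand) was the most frequent of the 10 genes, at the level in 20 cells (80%, 59.3 to 93.2%) with a median of 37.56 RPKM. Cell 25 led at 155.64 RPKM, 1.77-fold the next value of 87.76 in cell 17, and cell 11 had 77.11. Below the level were cell 10 at 6.21 RPKM, cell 1 at 4.3, cell 8 at 4.01, cell 32 at 2.13 and cell 34 at 0. It lies on the same chromosome as Lepr with 452121 bases between them, on the opposite strand. An overlap of 4 exon bases with Raver2 on the opposite strand cannot be separated in unstranded libraries, and Raver2 was above 0 in 3 cells, at most 3.46 RPKM.

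Jak2 (chr19:29251828-29313080, + strand) was spread thinly: above 0 in 20 cells but at the level in 2 (8%, 0.984 to 26.0%), cell 13 at 14.64 and cell 11 at 13.57 RPKM. Cells 15, 27 and 12 followed at 9.03, 8.86 and 7.95 RPKM, cell 7 had 3.45, and the median over all cells was 0.52. Jak1 was above Jak2 in 24 of 25 cells on the RPKM scale, and 18 cells had Jak1 at the level without Jak2. The exception was cell 34, with 0.52 RPKM of Jak2 and Jak1 at 0. The other kinases of the family were scarcer than Jak1: Jak3 was at the level in 3 cells and Tyk2 in 1, cell 27, at 21.2 RPKM. Together, 21 cells had at least 1 of the 4 kinases at the level.

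Stat3 (chr11:100885098-100939540, - strand) was at the level in 13 cells (52%, 31.3 to 72.2%) with a median of 12.99 RPKM. Cell 29 had 154.01 RPKM, 2.65-fold the next value of 58.19 in cell 15. Cells 32, 27, 25, 10, 26 and 17 had 45.51, 43.7, 40.88, 36.52, 34.52 and 30.4 RPKM. Cells 4, 24, 6, 11 and 8 had 27.84, 19.22, 17.91, 13.36 and 12.99 RPKM. Below the level the highest was 7.54 RPKM in cell 7, and 8 cells were at 0. Stat5a, the neighbouring gene, shares 72 exon bases with Stat3 on the opposite strand. It was above 0 in 7 cells and at the level in 1, cell 32, at 12.7 RPKM, where Stat3 had 45.51 RPKM.

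Stat5b, the STAT most used by prolactin and growth hormone receptors together with Stat5a, was at the level in 8 cells and above 0 in 17. Stat3 was above Stat5b in 15 cells, below it in 5, and both were at 0 in 5. Of the 10 Prlr cells, 5 (4, 7, 15, 24 and 26) had Stat5b at the level, where the product of shares gives 3.2, and cell 11 missed it narrowly at 9.95 RPKM. None of the 10 had Prlr, Jak2 and a Stat5 gene at the level together. Jak2 was at the level in 2 cells, and 1 of these, cell 11, had Prlr (product of shares 0.8). The count of 0 therefore cannot be read as an absence of the route. Stat2 was in 5 cells, Stat6 in 1 and Stat4 in 0.

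By cell, 22 of 25 had at least 1 of the 7 receptor genes at the level, with 13 cells having 1, 6 cells having 2 and 3 cells (11, 15 and 29) having 3. Cells 5, 13 and 31 had none. Stat3 and Jak1 or Jak2 were at the level together in 10 cells. All 10 had Jak1, and for Jak1 with Stat3 the product of shares gives 10.4. With Jak3 and Tyk2 counted too there were 11, the added one being cell 8, with 28.93 RPKM of Jak3 beside 24.44 of Prlr and 12.99 of Stat3. A ligand-binding receptor was at the level in 18 of all 25 cells. Of the 10 cells with Stat3 and Jak1 or Jak2, 9 also had one (4, 6, 11, 15, 24, 25, 26, 27 and 29). For cell 27 it was Lifr alone. In cell 17, the remaining one, Il6st was the receptor gene at the level. Cell 29 stood out for this route, with the highest values of Lepr, Ghr, Il6st and Stat3. It was also the cell with the most genes at the level (6183) and one of the 6 cells low in Malat1, a nuclear RNA, at 10.21 RPKM. The part of these in its values was not tested. It carried 481.3 RPKM of Pomc, 504.1 of Cartpt, 90.9 of Npy, 29.5 of Agrp, 341.4 of Serpina3n and 102.1 of Vim, the last a tanycyte marker.

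The 6 cells low in Malat1 (1, 3, 5, 6, 29 and 31) had at most 16.59 RPKM of it and the other 19 at least 45.92. Prlr was at the level in 1 of these 6 and 9 of 19, Stat3 in 2 and 11, Cntfr in 2 and 7, Il6st in 2 and 9, Ghr in 1 and 2, and Jak1 in 5 and 15. Lepr was above 0 in 1 of the 6 and 11 of the 19. For every gene other than Il6ra, Lifr and Jak2, at least 1 cell of both sets reached the level or, for Lepr, a value above 0. The part of Malat1 level in these counts was not tested.

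The pathway beyond the 10 genes was read from fixed lists. Of 13 ligand genes in the table, 3 reached the level in any cell and 9 were at 0 in all cells, among them Prl, Lif and Il6. Those at the level were Csf3 at 98.9 RPKM in cell 43 and 36.6 in cell 26, Il11 at 28.1 in cell 14, and Gh at 15.2 in cell 4. Over all symbols of the table, 42.7% reached the level in any cell. Il11 was above 0 in 12 cells, and Lep, the leptin gene, in 2 with at most 1.8 RPKM. Of 27 other cytokine receptor genes, 14 were at the level in at least 1 cell, beside the same 42.7%. Csf2ra was in 13 cells, Ifngr2 in 11, Il4ra, Ifnar1 and Ifnar2 in 9 each and Crlf2 in 8, while Osmr was in 0, and Il2rg, Il12rb1, Il21r and Il9r were among those at 0 in all cells.

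Adaptors that link receptors to other routes ranged from 1 to 24 cells, with a median over the 14 listed genes of 7 cells beside 4 for all genes with any value. Grb2 was at the level in 24 cells, the insulin receptor substrates Irs2 and Irs4 in 17 and 15, Sh2b1, which strengthens Jak2 signalling, in 14, and Fyn in 12. Ptpn11, the phosphatase Shp2 that carries signals of several cytokine receptors, was in 8. Less frequent were Gab1 and Shc1 in 4 cells each, Sh2b2 in 3, Lyn and Sh2b3 in 2 each and Irs1 in 1. Sh2b1 was with Il6st in 9 of its 14 cells (product of shares 6.16).

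Of 18 inhibitor genes, 17 reached the level in at least 1 cell, beside 42.7% of all symbols of the table. The median over the list was 6.5 cells per gene, beside 4 for all genes with any value. A cell had 3 to 8 of them at the level. The cytokine-induced inhibitors Socs2, Cish, Socs3 and Socs1 were in 14, 13, 9 and 5 cells, and the phosphatases Ptpn1, which acts on Jak2, and Ptpn2 in 11 and 4. Pias1, an inhibitor of STAT binding to DNA, was the most frequent, in 15 cells. Ptprc, a phosphatase of blood cells, was at 0 in all cells.

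Prlr shared cells with some of these inhibitors more than with others. Socs2 was at the level in 8 of 10 Prlr cells, Cish and Ptpn1 in 7 each and Socs3 in 6, where the products of shares give 5.6, 5.2, 4.4 and 3.6. Socs1 was in 2 (product 2.0) and Ptpn2 in 0 (product 1.6). All 10 Prlr cells had at least 1 of Cish, Socs2 and Socs3, as did 11 of the 15 others. Stat3 was shared with Cish in 9 cells (product of shares 6.76), with Ptpn1 in 8 (5.72), with Socs3 in 7 (4.68), with Socs2 in 7 (7.28), with Socs1 in 2 (2.6) and with Ptpn2 in 2 (2.08). The palindromes shown above lie in the promoters of Prlr, Socs3 and Cish, and their part in these counts was not tested. Cish reached 145.2 RPKM in cell 43, which had Prlr at 2.02 RPKM and Stat3 at 0.

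**Figure D4:**
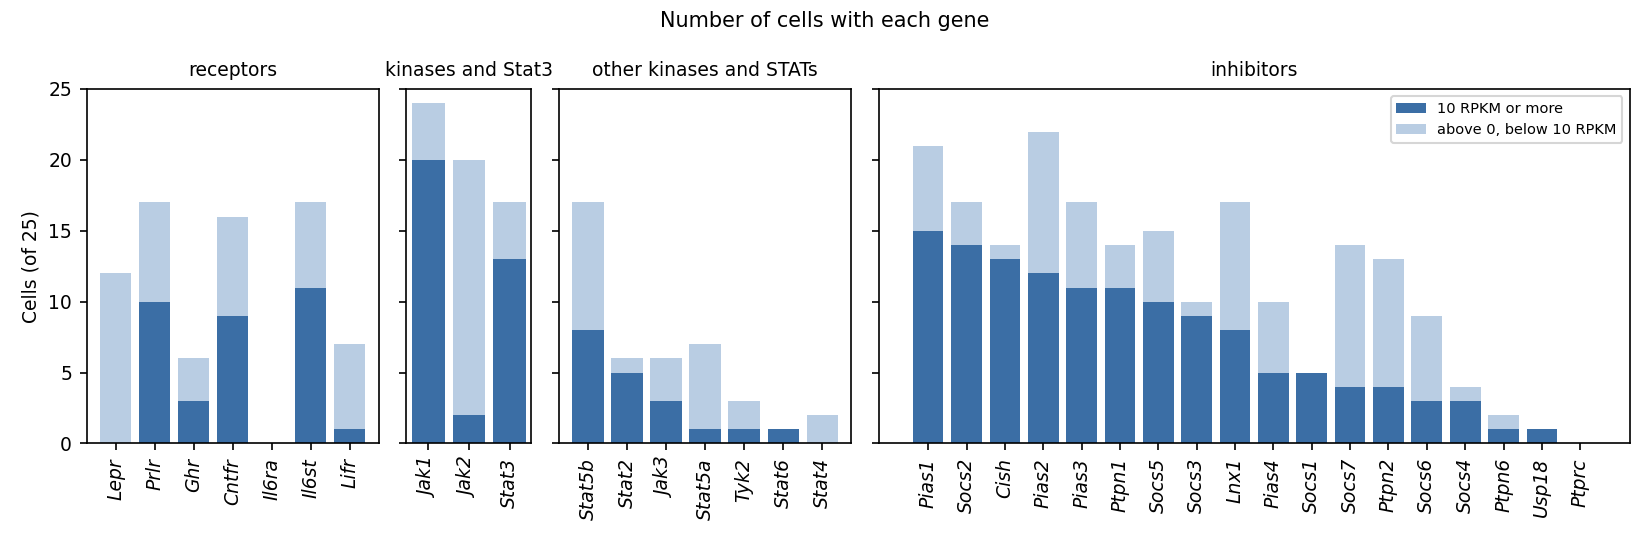
Number of cells (of 25) with each gene, dark for 10 RPKM or more and light for values above 0 but below it, for the 7 receptors, the 2 kinases with Stat3, other kinases and STATs, and 18 inhibitors. Jak2 and Lepr are mostly or wholly light, at 2 and 0 dark cells, while Jak1 is dark in 20.

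Genes known as targets of Stat3 or Stat5 were led by Fos, Junb and Bcl2l1, in 24, 23 and 22 cells, which many other stimuli also induce. Pim3 was in 18 cells and Mcl1 in 13. Serpina3n, an acute-phase gene induced through Stat3, was at the level in 4 cells, at 341.4 RPKM in cell 29, 329.6 in cell 25, 76.4 in cell 13 and 21.9 in cell 27. Of these 4 cells 3 had Stat3 at the level, where the product of shares gives 2.08, too few cells to read. Cell 13 had 3.18 RPKM of Stat3. Gfap, Lcn2 and Igf1 were at 0 in all cells.

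Levels within 12 listed pairs of receptor chains, kinases and Stat3 were weakly related over the 25 cells. One of these, Prlr with Ghr (r 0.123), joins 2 receptors that each act as pairs of their own chain. It is therefore not a pair known to act together, unlike the others. The median Pearson r of log2(RPKM + 1) was 0.096, with 9 of 12 above 0. It ran from -0.217 (Lifr with Il6st) to 0.419 (Prlr with Jak2). Over all 103730406 pairs of 14404 genes the median was -0.005, and the central 95% ran from -0.373 to 0.424, so all 12 lay within it. Prlr with Jak2 had a Spearman rho of 0.334, and r was 0.253 without cells 12 and 11. Jak2 with Stat3 had an r of 0.321 and a rho of 0.446. All these points share cells, depth and library.

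The genes most like each of 6 genes by r over the 25 cells, were sought among 8136 genes at the level in at least 5 cells. For Prlr they were Ext2 (r 0.704), Adgrl2 (0.69) and Cgref1 (0.684), for Cntfr Trpm4 (0.726), Htr1d (0.667) and Tmem47 (0.661), and for Il6st Unc13a (0.76), Slc25a36 (0.659) and Serp1 (0.659). For Jak1 they were Anapc5 (0.667), Tmem261 (0.661) and Nap1l4 (0.648), for Jak2 Zfp775 (0.758), Zcchc7 (0.711) and C2cd4b (0.701), and for Stat3 Insr (0.746), Arnt2 (0.719) and Anp32e (0.688). Insr encodes the insulin receptor, and Arnt2 a transcription factor of hypothalamic neurons. Of these 18 genes, 12 were named again with a pseudocount of 0.1 RPKM. With genes above 0 in at least 5 cells as the pool, 14 were named again. Being the highest of 8136 values for each gene, these r describe the 25 cells only.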

How the data were processed

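Poly(A) RNA of 25 hand-picked cells was made into Smart-Seq2 and Nextera XT libraries, per the labels' protocols. The authors deposited 1 table whose values are RPKM by their form: decimals, in steps of whole reads per gene length. Submitters' processing notes name bcl2fastq, TopHat2 2.0.14, Picard 2.5.0, SAMtools 0.1.19, featureCounts 1.4.6, mm10 and GRCm38; the annotation is not given in the sources used here. Of 33082 rows, 26 named by dates were left out, and for 755 repeated symbols the row of highest sum was kept. The plan assumed counts; since values are RPKM, levels, the pseudocount of 1 and all else are on that scale, with no test.

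Depth came from the steps of 1 to 3 reads in 3676 genes with 1 transcript in GENCODE M21, tested on simulated data (error at most 0.253%). For Lepr, Cntfr, Il6st, Lifr and Jak2 the gene length was fitted so that low values were whole reads (simulated error at most 2.6%). The simulated fits started near the true length. Jak2 was fitted at 8.6 kilobases against 5.03 in GENCODE. Il6st was fitted at 7.79 against 11.1, from 4 low values. The simulated error thus does not cover Jak2 and Il6st. For the other 5 genes GENCODE exon lengths give rougher read numbers. Per cell, value times length added up to between 1.384 and 1.468 times the total expected for matching lengths, so reads are estimates. Shares have exact Clopper-Pearson 95% intervals, which, like the limit of 3 cells for a count of 0, cover counting error only. A product of shares is the number of cells expected with both genes if they were unrelated. Named genes are the 10 genes, up to 6 of each pathway list in most cells and up to 5 at 0, fixed further names (such as Socs3, Stat5b, Th), and the 3 genes with the highest r for each of the 10 above 0 in at least 15 cells. The genes and lists were chosen with earlier results of these data known; pairs of genes and single cells were picked with their values in view. Not every gene chosen in this way is reported here. Python 3.11.15, pandas 2.3.3, scipy 1.17.1 and numpy 2.4.6 were used.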

Additional observations from a re-analysis of the deposited data

How the results depend on the processing

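No paired analysis was possible because all cells form 1 group. The counts follow the level chosen. At 20 RPKM, 44 of the 250 values of the 10 genes were counted and at any value above 0, 136, against 69 at 10 RPKM. The median number of genes per cell was 2 at 10 RPKM, 4 at 1 RPKM and 6 above 0. Cells with a ligand-binding receptor, Jak1 or Jak2, and Stat3 numbered 9 at 10 RPKM, 4 at 20 RPKM, 15 at 1 RPKM and 17 above 0, and those with all 3 CNTF receptor chains 0 at 10 RPKM and 4 above 0. Lepr was above 0 in 12 cells, in 6 with at least 3 estimated reads and in 1 at 1 RPKM or more. Leaving out the 3 shallowest cells (9, 31 and 34), rescaling cells to the same sum, summing repeated rows and, chosen after seeing the data, leaving out cell 29 or the 6 cells low in Malat1 moved none of these counts by over 1.5 times. The median r of the 12 listed pairs, 0.096 over all cells, was 0.058 to 0.133 with single cells left out. It was 0.062 without the 6 cells low in Malat1. At the median depth 10 RPKM of Prlr is 279 reads and of Cntfr 40.7, while Lepr outside cell 29 rests on at most 9 reads per cell.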
